A study of Homo sapiens with 6 samples.

Results

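Nuclear pore proteins and the receptors that carry cargo through the pore were followed in WM164, a BRAF-mutant human melanoma cell line from a lymph node metastasis. The genes were all those whose probe set carried a single symbol of the nucleoporin (NUP), importin alpha and beta (KPNA, KPNB), importin (IPO), transportin (TNPO) or exportin (XPO) families, 47 of 18417 genes in all. Genes were matched by name, under a rule set with earlier results of these data known. The probe set with the highest mean stood for a gene. The vehicle group, called Parent, held 3 arrays of cells given DMSO, and the group of induced drug tolerant cells, called IDTC, held 3 arrays of cells kept for 16 days in PLX4032 (vemurafenib, which blocks the mutant BRAF kinase) at 500 nM. Both groups are the same line, grown in the same medium. The IDTC arrays show the cells present at the end of treatment, and the labels used here give no length for the DMSO treatment. The cells were kept in triplicate and RNA was isolated from each sample on its own. Nothing states that the cultures came from separate experiments, so p-values measure only the spread between these samples, which may be technical.

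The nuclear pore complex is a ring-shaped channel in the nuclear envelope. Stacked outer and inner rings of scaffold proteins hold a central channel lined with phenylalanine-glycine (FG) repeats, with filaments on the cytoplasmic side and a basket on the nuclear side. Importins and exportins bind cargo, pass through the FG repeats and load or release cargo according to the state of the small GTPase Ran. Proliferating cells make new pores in interphase and take the pores apart at mitosis, and several transport receptors carry ribosomal proteins, histones or RNA.

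Values are the authors' normalized log2 expression values, 1 per gene and array. A log2 fold change is the IDTC mean minus the Parent mean, with its standard error. A gene was called when its Benjamini-Hochberg adjusted p in limma, over all 18417 genes, was under 0.05. A gene that was not called is given by its value, without the words rose or fell. Each probe set has its own sensitivity, so levels of different genes describe brightness on the arrays and were not tested against each other. Over all genes, r lay between 0.995 and 0.998 within a group and between 0.953 and 0.957 across the groups. The melanocyte markers measured (6 of 7 listed) had group means of 10.2 to 13.4, and 15 measured markers of keratinocytes, endothelium, fibroblasts and leukocytes had group means of 3.60 to 8.11. The mean over these 15 markers was 5.32 to 5.47 in Parent and 5.34 to 5.40 in IDTC arrays. Of the 15, only the fibroblast marker LUM was called, which fell from 8.11 ± 0.18 to 7.21 ± 0.25 (SD, n = 3). Of the 6 melanocyte markers, 4 rose, with log2 fold changes of 1.45 ± 0.05 (MLANA), 1.20 ± 0.08 (TYR), 0.88 ± 0.05 (PMEL) and 0.85 ± 0.05 (SOX10). S100B fell by 0.85 ± 0.07, and MITF (-0.04 ± 0.06) was not called. On bulk RNA, fewer cells that express a gene and less of its RNA per cell cannot be told apart.

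Of the 47 genes, 32 fell, 5 rose and 10 were not called in the drug-tolerant cells. The 32 that fell are 68.1% of the list, and 24.9% of all genes tested fell. The 5 that rose stand beside 21.7% of all genes. The median log2 fold change was -0.46 for the list and -0.01 for all genes. A fall of 2-fold or more was seen for 10 of the 47 genes, while 5.4% of all genes tested fell that far. No gene of the list rose by 2-fold or more, while 3.81% of all genes tested did. The groups did not overlap for 38 of the 47, and for 54.1% of all genes tested. In the list, every IDTC array was below every Parent array for 34 genes and above for 4. Among the 23 nucleoporin genes 18 fell and 2 rose (median -0.69), and among the 24 receptor genes 14 fell and 3 rose (median -0.30).

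**Figure D1:**
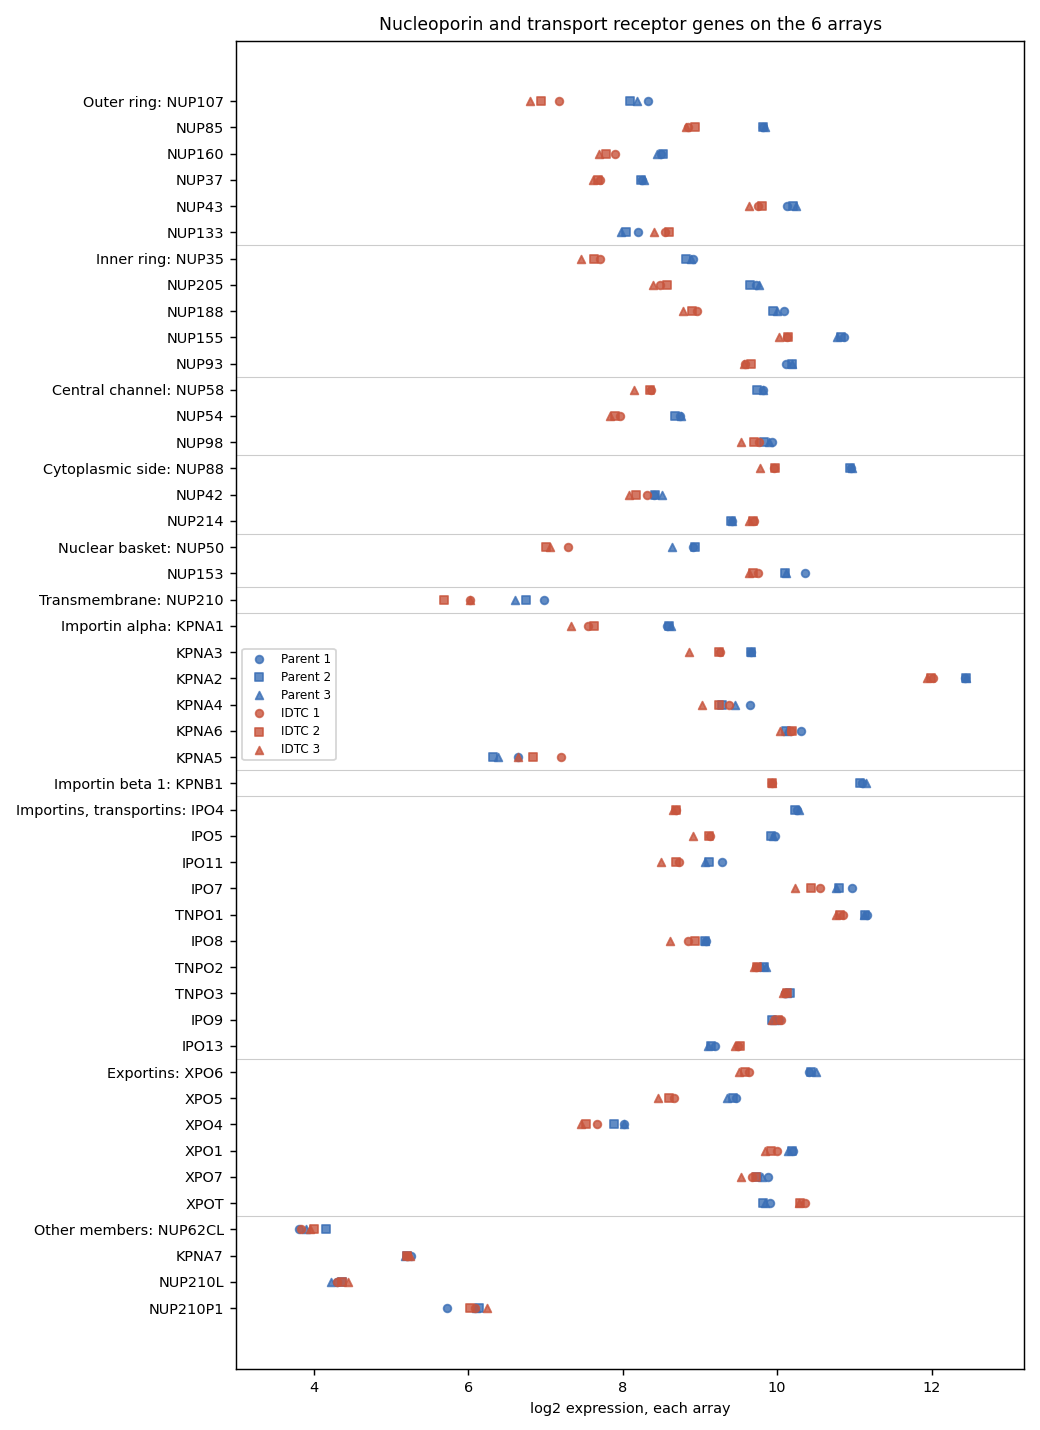
Log2 expression of each of the 47 genes on the 6 arrays (x axis), grouped by role (y axis), with Parent arrays in blue, IDTC arrays in red and the marker shape giving the sample number. IDTC arrays lie to the left of all Parent arrays for 34 genes and to the right for NUP133, NUP214, IPO13 and XPOT.

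The members are mostly bright on these arrays, with quartiles of the mean level at 8.19 and 9.97. Among all 4204 genes with a mean between these quartiles, 43.3% fell and 30.9% rose, with a median log2 fold change of -0.10. The 23 members in the same range had a median of -0.52, and 73.9% of them fell. This range of brightness was set after the values had been seen. The interquartile range of the arrays was 3.51 to 3.60 in Parent and 3.31 to 3.49 in IDTC arrays, narrowest in IDTC 3. IDTC 3 was also the lowest of its group for 40 of the 47 members, and for 71.4% of all genes in the same range of brightness. Without IDTC 3, 30 members fell and 5 rose, and the list median was -0.41. Of all genes, 4823 fell and 4052 rose without IDTC 3, against 4592 and 3996 with it.

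**Figure D2:**
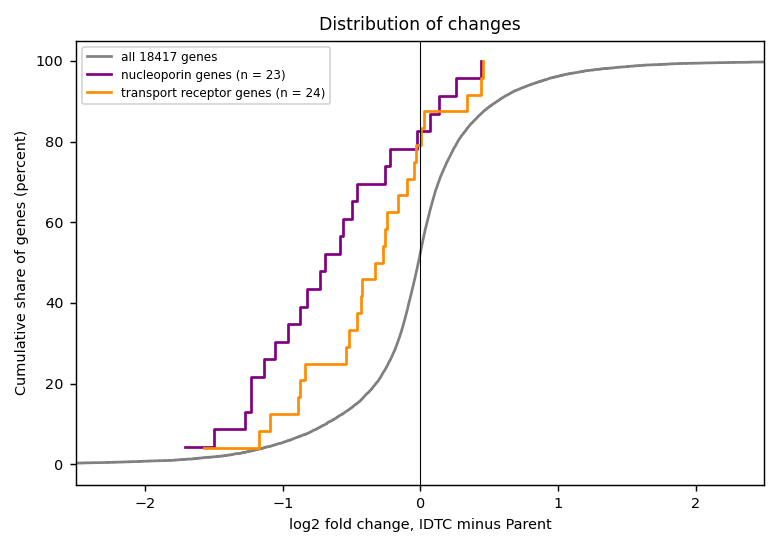
Cumulative share of genes (y axis, percent) up to a given log2 fold change (x axis, IDTC minus Parent), for all 18417 genes, the 23 nucleoporin genes and the 24 receptor genes. The median is -0.69 for the nucleoporin genes, -0.30 for the receptor genes and -0.01 for all genes, whose curve extends further at both ends.

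The lowest log2 fold change belonged to NUP50, a mobile protein of the nuclear basket that binds importin alpha and helps it release cargo. NUP50 read 8.91, 8.93 and 8.64 on the Parent arrays and 7.30, 7.00 and 7.06 on the IDTC arrays. It fell by 1.71 ± 0.11 (3.27-fold, adjusted p = 1.22e-05), and the groups were far apart. NUP153, the FG protein that anchors the basket, read 10.36, 10.10 and 10.11 in Parent and 9.76, 9.68 and 9.63 in IDTC arrays. It fell by 0.50 ± 0.08 (adjusted p = 0.0020), with no overlap.

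All 5 genes of the inner ring, the scaffold that lines the membrane of the pore and holds the channel proteins, fell, with a median of -1.14. NUP35, which ties the ring to the membrane, read 8.92, 8.81 and 8.88 in Parent and 7.70, 7.63 and 7.46 in IDTC arrays and fell by 1.27 ± 0.08 (2.41-fold, adjusted p = 8.81e-06). NUP205 and NUP188 are related large scaffold proteins. NUP205 read 9.72, 9.65 and 9.77 in Parent and 8.49, 8.57 and 8.40 in IDTC arrays, and fell by 1.23 ± 0.07 (2.35-fold, adjusted p = 5.19e-06). NUP188 read 10.09, 9.95 and 10.00 in Parent and 8.96, 8.90 and 8.78 in IDTC arrays, and fell by 1.14 ± 0.07 (2.20-fold, adjusted p = 9.83e-06). Neither gene's groups overlapped. The remaining inner ring genes, NUP155 and the linker NUP93, fell by 0.73 ± 0.06 and fell by 0.56 ± 0.06, respectively.

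In the outer ring, built from Y-shaped complexes that are placed early when a pore forms, 5 of 6 genes fell and 1 rose. NUP107, in the stalk of the Y, read 8.33, 8.09 and 8.19 in Parent and 7.18, 6.95 and 6.80 in IDTC arrays and fell by 1.23 ± 0.11 (2.34-fold, adjusted p = 6.14e-05). NUP85 fell by 0.96 ± 0.06, NUP160 fell by 0.69 ± 0.07, NUP37 fell by 0.58 ± 0.05 and NUP43 fell by 0.46 ± 0.07. NUP133, the partner of NUP107 at the foot of the stalk, went the other way. It read 8.20, 8.04 and 7.97 in Parent and 8.55, 8.60 and 8.40 in IDTC arrays, and rose by 0.44 ± 0.08 (adjusted p = 0.0032) with no overlap between the groups.

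Of the FG proteins of the central channel, all 3 measured genes fell. NUP58 read 9.82, 9.74 and 9.82 in Parent and 8.37, 8.35 and 8.15 in IDTC arrays and fell by 1.50 ± 0.07 (2.83-fold, adjusted p = 3.88e-06). Its partner in the channel trimer, NUP54, fell by 0.82 ± 0.06. The third protein of this trimer, NUP62, has no probe set of its own in the annotation. The probe set it shares with IL4I1 read 7.12, 7.29 and 7.31 in Parent and 6.85, 6.79 and 7.00 in IDTC arrays, and was not tested. NUP98, whose transcript also encodes the scaffold protein Nup96, read 9.93, 9.83 and 9.89 in Parent and 9.76, 9.70 and 9.53 in IDTC arrays. It fell by 0.22 ± 0.07 (adjusted p = 0.044), a call close to the threshold that was lost in 9 of 14 other analyses of the same arrays. It was lost without any single array other than IDTC 1 (adjusted p = 0.0699 to 0.116). The NUP98 difference was -0.14 after quantile normalization and -0.08 after that of the gene table. The gene table holds all 18417 genes tested, 1 probe set each, rather than all probe sets.

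The cytoplasmic side was split. NUP88, which sits at the base of the filaments, read 10.96, 10.95 and 10.97 in Parent and 9.96, 9.97 and 9.78 in IDTC arrays and fell by 1.05 ± 0.07 (2.08-fold, adjusted p = 1.25e-05). NUP214, the FG protein that binds NUP88 and the exportin XPO1, read 9.41, 9.40 and 9.42 in Parent and 9.70, 9.68 and 9.64 in IDTC arrays and rose by 0.26 ± 0.05 (adjusted p = 0.0036). Neither gene's groups overlapped, and the partners moved in opposite directions. NUP42 fell by 0.26 ± 0.07 (adjusted p = 0.025), a call lost without Parent 2, Parent 3, IDTC 2 or IDTC 3 (adjusted p = 0.0566 to 0.094) and under 2 other scalings. The membrane protein NUP210 fell by 0.87 ± 0.13, from 6.98, 6.75 and 6.60 to 6.02, 5.68 and 6.02, at a low level on these arrays.

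**Figure D3:**
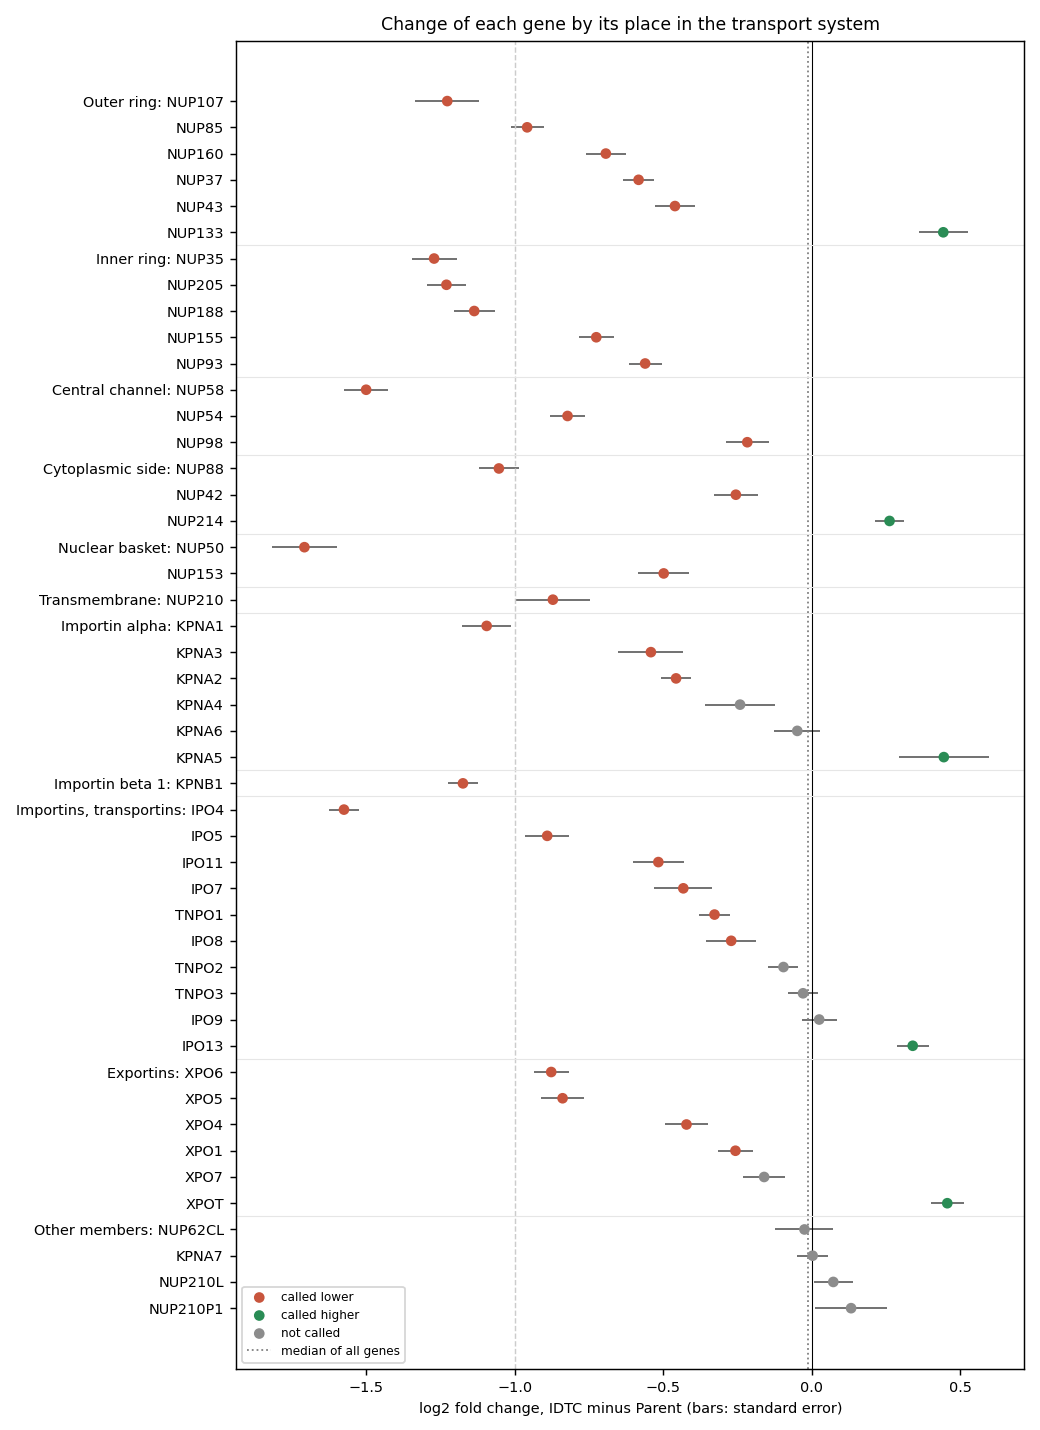
Log2 fold change (x axis, IDTC minus Parent) of each of the 47 genes by role (y axis), with bars for the standard error, a dashed line at -1 and a dotted line at the median of all genes. All 5 inner ring genes and both basket genes shown (NUP50 and NUP153) are called lower, and the called higher genes are NUP133, NUP214, KPNA5, IPO13 and XPOT.

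Importin alpha proteins read the classical nuclear localization signal and join importin beta 1, which carries the pair through the pore. KPNB1, the gene of importin beta 1, read 11.10, 11.07 and 11.15 in Parent and 9.93, 9.94 and 9.94 in IDTC arrays. It fell by 1.17 ± 0.05 (2.26-fold, adjusted p = 2.17e-06), with hardly any spread between the IDTC arrays. The 6 importin alpha genes other than KPNA7 did not move together, with 3 lower, 1 higher and 2 not called. KPNA1 read 8.58, 8.59 and 8.63 in Parent and 7.56, 7.63 and 7.33 in IDTC arrays and fell by 1.09 ± 0.08 (2.14-fold, adjusted p = 2.75e-05). KPNA3 fell by 0.54 ± 0.11, with IDTC 3 (8.86) below IDTC 1 and IDTC 2 (9.26 and 9.24). All 3 Parent arrays held the same KPNA3 value (9.6629), so its observed spread came from the IDTC arrays only. Why the Parent values were identical is not known.

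KPNA2, the importin alpha gene best known for high expression in dividing cells, read 12.44 on each Parent array and 12.02, 11.99 and 11.94 on the IDTC arrays. It fell by 0.46 ± 0.05 (1.37-fold, adjusted p = 2.00e-04). Its second probe set read 11.98, 11.99 and 11.99 in Parent and 11.56, 11.54 and 11.48 in IDTC arrays, a difference of -0.46. On each array it lay a nearly constant amount below the first, so it does not count as a separate measurement. KPNA2 was the only gene of the list with more than 1 single-symbol probe set. KPNA4 (-0.24 ± 0.12) and KPNA6 (-0.05 ± 0.08) were not called. KPNA5 rose by 0.44 ± 0.15 (adjusted p = 0.045), from 6.65, 6.33 and 6.38 to 7.20, 6.84 and 6.65. Its groups touched, since Parent 1 and IDTC 3 had the same value. The call was lost without Parent 2, Parent 3, IDTC 1 or IDTC 2 (adjusted p = 0.088 to 0.146) and under 2 other scalings. Without IDTC 1 the difference was 0.29.

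Among the other import receptors, 6 of 10 genes fell, 1 rose and 3 were not called. IPO4, a carrier of histones and ribosomal proteins, read 10.26, 10.22 and 10.29 in Parent and 8.70, 8.69 and 8.66 in IDTC arrays. It fell by 1.58 ± 0.05 (2.98-fold, adjusted p = 7.20e-07), the lowest adjusted p of the list. IPO5 and IPO7, which also import ribosomal proteins, had log2 fold changes of -0.89 ± 0.07 and -0.43 ± 0.10, both called, and IPO11 fell by 0.52 ± 0.09. IPO8, a close relative of IPO7, fell by 0.27 ± 0.09 (adjusted p = 0.034), a call lost without IDTC 1 or any single Parent array (adjusted p = 0.0562 to 0.0922) and under 2 other scalings. Without IDTC 3 its difference was -0.18. TNPO1, the receptor of many RNA-binding proteins, fell by 0.33 ± 0.05.

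TNPO2 (-0.10 ± 0.05), TNPO3 (-0.03 ± 0.05), which imports serine- and arginine-rich splicing factors, and IPO9 (0.02 ± 0.06) were not called, though IPO9 was called higher (0.15) after quantile normalization of the gene table. IPO13, a receptor that works in both directions, read 9.20, 9.14 and 9.11 in Parent and 9.49, 9.52 and 9.45 in IDTC arrays. It rose by 0.34 ± 0.05 (adjusted p = 0.0014), with every IDTC array above every Parent array.

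Of the 6 exportin genes 4 fell, 1 rose and 1 was not called. XPO6, which exports actin with profilin, fell by 0.88 ± 0.06, and XPO5, which exports precursors of microRNAs, fell by 0.84 ± 0.07. XPO4 fell by 0.42 ± 0.07. XPO1, also known as CRM1, which exports proteins with a leucine-rich signal, read 10.20, 10.19 and 10.14 in Parent and 9.99, 9.93 and 9.84 in IDTC arrays. Its fall of 0.26 ± 0.06 (adjusted p = 0.0090) was small, and the groups did not overlap. The call was lost after quantile normalization of the gene table (-0.13, adjusted p = 0.058). XPO7 (-0.16 ± 0.07) was not called, but was called lower with an intensity trend (adjusted p = 0.0495), and it was at -0.03 after quantile normalization of the gene table. XPOT, the exporter of transfer RNA, had the highest log2 fold change of the list. It read 9.91, 9.82 and 9.84 in Parent and 10.36, 10.30 and 10.28 in IDTC arrays and rose by 0.46 ± 0.05 (1.37-fold, adjusted p = 3.16e-04).

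The remaining 4 members were low on every array and were not called. KPNA7, NUP62CL, NUP210L and NUP210P1 had group means of 3.93 to 6.12 and log2 fold changes of -0.02 to 0.13. Together with NUP210 they were the 5 members among the dimmest 40% of genes.

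Pairs of related or partner genes were compared within each array, where a constant log2 shift of the whole array cancels (quantile normalization does not cancel). With 3 arrays against 3 the exact permutation test (2-sided) cannot go below p = 0.1, so no pair could pass a threshold of 0.05. For 7 of 11 pairs the groups did not overlap and the test gave this smallest p, which is 0.157 after adjustment over the 11 pairs. Of all single genes 54.1% had groups that did not overlap, and the share over gene pairs in general was not computed. The largest shift was in NUP214 minus NUP88, which was -1.55 ± 0.0027 on the Parent arrays and -0.23 ± 0.08 on the IDTC arrays (SD, n = 3), giving a difference of 1.32. KPNA1 minus KPNA6 moved from -1.58 ± 0.13 to -2.63 ± 0.07, a difference of -1.05. XPO1 minus KPNB1, the main exportin against importin beta 1, moved from -0.93 ± 0.07 to -0.01 ± 0.08, a difference of 0.92.

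Within the importin alpha family KPNA2 minus KPNA1 differed by 0.64, KPNA2 minus KPNA6 by -0.41 and KPNA3 minus KPNA4 by -0.30 between the groups. TNPO1 minus TNPO2 differed by -0.23. For the other 4 pairs the groups overlapped. KPNA2 minus KPNA3 differed by 0.08, with IDTC 3 apart at 3.08 against 2.75 on both other IDTC arrays. Without IDTC 3 the difference was -0.03. The Parent SD of this pair was 0.0025, with KPNA3 at the same value on all Parent arrays. KPNA2 minus KPNA4 differed by -0.22, IPO7 minus IPO8 by -0.16 and NUP205 minus NUP188 by -0.09 (exact permutation p = 0.2 for these 3 and 1 for KPNA2 minus KPNA3).

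**Figure D4:**
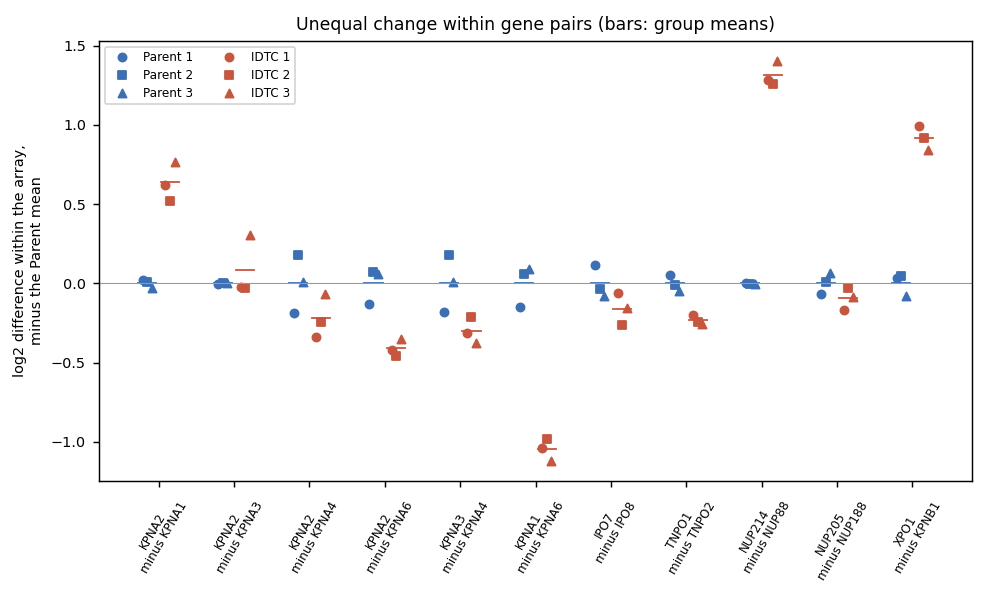
Difference of log2 values of 2 genes within each array, less the Parent mean of that pair (y axis), for 11 pairs (x axis), with Parent arrays in blue, IDTC arrays in red and bars at the group means. NUP214 minus NUP88 lies 1.32 higher and KPNA1 minus KPNA6 1.05 lower in IDTC arrays, while the groups overlap for NUP205 minus NUP188.

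Promoter windows, from 250 bases before to 50 bases after a transcription start, were found for 40 of the 47 genes (52 windows) in RefSeq on GRCh38.p14. Windows were not used for KPNA4, KPNA5, KPNA7, KPNB1, NUP43, NUP210P1 and XPO7. They were searched on both strands for the letters CACGTG (the E-box bound by MYC), GCGGGAA (E2F type), CCGGAAG (ETS type), TTTGAA (the cell cycle homology region) and GCGCATG (part of the site of NRF1). The ETS-type letters were in 25.0% of the members' windows, 13.0% of the windows of all genes tested and 10.3% of all windows. The E2F-type letters were in 21.2%, 8.36% and 6.55%, TTTGAA in 23.1%, 12.3% and 15.2%, the E-box in 13.5%, 8.32% and 7.26%, and GCGCATG in 11.5%, 5.19% and 4.43%. These shares are descriptions of the letters in the windows and were not tested.

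Of the 9 genes that fell by 2-fold or more and had a window, 6 held the ETS-type letters (IPO4, NUP107, NUP35, NUP50, NUP58 and NUP88) and 3 the E-box (IPO4, NUP188 and NUP50). TTTGAA was in 3 (NUP205, NUP35 and NUP50), the E2F-type letters in 2 (NUP107 and NUP58) and GCGCATG in 2 (NUP107 and NUP50). The ETS-type letters were also in the windows of NUP214 and XPOT, which rose, and of TNPO3, which was not called. The E-box and GCGCATG were also in a window of TNPO2, which was not called. The E2F-type letters were also in windows of NUP210L and NUP62CL, which were not called. Counted by gene, the 40 members with a window held the ETS-type letters in 13, the E2F-type letters in 10, TTTGAA in 10, the E-box in 7 and GCGCATG in 5. Such a count by gene was not made for all genes. The stretches below show ETS-type, E-box and GCGCATG matches before the start in genes that fell by 2-fold or more. XPOT, the gene with the highest log2 fold change, is shown beside them and also holds ETS-type letters. KPNA1 and NUP205 also fell by 2-fold or more and had a window, but held none of these matches and are not shown. KPNA1 held none of the letters searched. They run 5′ to 3′ on the strand of the gene, end before its transcription start, and have the matched letters of the E-box, ETS-type and GCGCATG motifs in capitals. In NUP50 and NUP107 the GCGCATG letters match on both strands and overlap.
NUP50, chr22:45163739-45163924, plus strand: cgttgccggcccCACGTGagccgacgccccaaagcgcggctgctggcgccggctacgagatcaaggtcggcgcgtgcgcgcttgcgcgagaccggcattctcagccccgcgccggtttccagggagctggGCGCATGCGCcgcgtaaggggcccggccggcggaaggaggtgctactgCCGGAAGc
IPO4, chr14:24188828-24188880, minus strand: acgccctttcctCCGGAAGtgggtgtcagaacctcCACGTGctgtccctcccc
NUP188, chr9:128947610-128947686, plus strand: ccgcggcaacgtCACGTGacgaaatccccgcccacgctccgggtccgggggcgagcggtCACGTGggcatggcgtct
NUP107, chr12:68686882-68686977, plus strand: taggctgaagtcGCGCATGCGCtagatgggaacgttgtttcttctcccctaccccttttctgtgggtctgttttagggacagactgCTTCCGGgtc
NUP58, chr13:25301547-25301577, plus strand: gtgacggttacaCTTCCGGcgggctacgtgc
NUP35, chr2:183124334-183124364, plus strand: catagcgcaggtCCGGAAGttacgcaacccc
NUP88, chr17:5419743-5419773, minus strand: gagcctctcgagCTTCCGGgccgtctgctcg
XPOT, chr12:64404267-64404337, plus strand: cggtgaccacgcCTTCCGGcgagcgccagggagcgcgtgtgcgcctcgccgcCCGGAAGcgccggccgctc

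Pore proteins with other names were listed apart. Of 9 measured (12 listed), 6 fell, 1 rose and 2 were not called, with a median of -0.46. This count and those of the lists below stand beside 24.9% of all genes lower and 21.7% higher. Among the 4204 genes in the members' range of brightness, 43.3% fell and 30.9% rose. SEH1L, a subunit of the Y complex, read 8.70, 8.68 and 8.69 in Parent and 7.21, 7.07 and 6.91 in IDTC arrays and fell by 1.63 ± 0.08 (3.09-fold). NDC1, a membrane protein that anchors the pore, fell by 1.20 ± 0.05, RAE1, which binds NUP98, fell by 0.58 ± 0.06 and TMEM33 fell by 0.49 ± 0.06. TPR, the protein that forms the filaments of the basket, rose by 0.23 ± 0.05, and was named after its value had been seen. The basket genes NUP50, NUP153 and TPR thus read -1.71, -0.50 and 0.23.

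Genes of the Ran cycle and of import adaptors fell in 6 of 11 measured cases (12 listed), rose in none (2 with either scaling of the gene table) and were not called in 5 (median -0.41). The Ran-binding protein gene RANBP1 fell by 1.60 ± 0.06 (3.03-fold), RAN itself fell by 1.31 ± 0.09 (2.48-fold), CSE1L, which returns importin alpha to the cytoplasm, fell by 1.12 ± 0.06 and NUTF2, which returns Ran to the nucleus, fell by 0.70 ± 0.06. Without the dimmest 40% of genes, 8 genes of the Ran cycle list fell. Genes of mRNA export fell in 11 of 16 measured cases (19 listed), rose in none (2 with quantile normalization or either scaling of the gene table) and were not called in 5 (median -0.31). The number that fell was 9 after re-centring or quantile normalization and 14 without the dimmest 40% of genes. The export adaptor gene ALYREF fell by 1.34 ± 0.07, the helicase gene DDX39A fell by 1.13 ± 0.07 and the cap-binding genes NCBP2 and NCBP1 had log2 fold changes of -0.62 ± 0.09 and -0.56 ± 0.07.

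The nuclear lamina and inner membrane went both ways, with 6 of 12 genes lower, 4 higher and 2 not called (median -0.24). Of all genes tested 24.9% fell and 21.7% rose, and of those in the members' range of brightness 43.3% fell and 30.9% rose. The counts of this list therefore do not set it apart from other genes of that brightness. LMNB1, which encodes lamin B1, fell by 1.13 ± 0.12, the lamin B receptor gene LBR fell by 0.94 ± 0.11 and TMPO fell by 0.86 ± 0.07. The 4 that rose encode the SUN and nesprin proteins that link the envelope to the cytoskeleton, SYNE1 (0.83 ± 0.10), SYNE2 (0.72 ± 0.13), SUN2 (0.57 ± 0.06) and SUN1 (0.32 ± 0.07), of which all but SYNE1 were named after their values had been seen.

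Genes of proliferation and housekeeping genes moved as well. Of 10 proliferation genes 9 fell and TOP2A (0.23 ± 0.09) was not called, with a list median of -0.79. TOP2A was called higher in 7 of 14 other settings (adjusted p = 0.00495 to 0.0486), among them without IDTC 3 (0.32). CCNE2 fell by 2.55 ± 0.11, PCNA fell by 1.78 ± 0.06, MCM6 fell by 1.69 ± 0.09 and MCM2 fell by 1.13 ± 0.06. The smallest falls of this list were those of CCNB1 (0.26 ± 0.08) and MKI67 (0.24 ± 0.07), named after their values had been seen. Of 9 measured housekeeping genes (10 listed), 5 fell, 2 rose and 2 were not called (median -0.34). HPRT1 fell by 1.80 ± 0.14 and GAPDH fell by 0.46 ± 0.05, and B2M rose by 1.20 ± 0.12 and GUSB by 0.70 ± 0.05. The part of these lists in the changes of the pore and receptor genes was not tested.

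**Figure D5:**
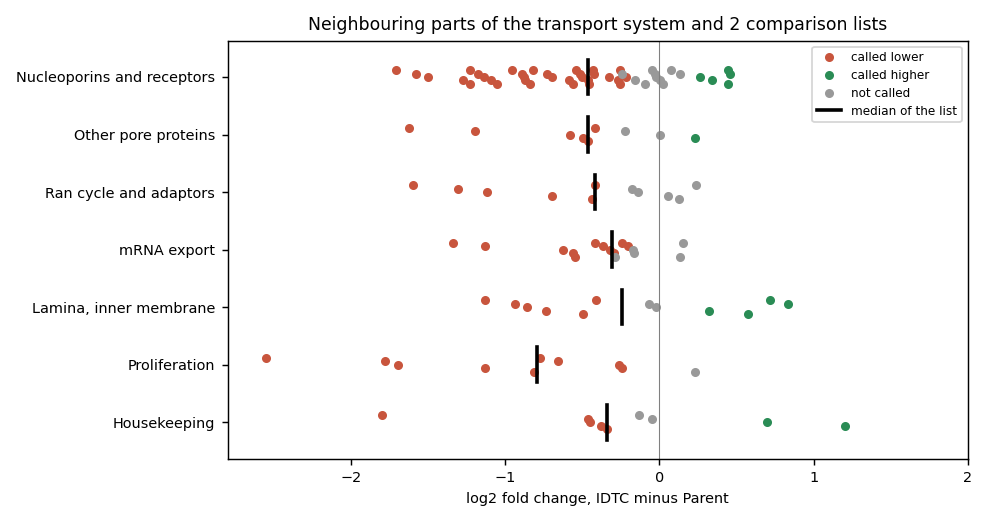
Log2 fold change (x axis, IDTC minus Parent) of single genes in 7 lists (y axis), coloured by call, with a black bar at the list median. The medians run from -0.79 for proliferation genes to -0.24 for the lamina and inner membrane, and the 47 nucleoporin and receptor genes have a median of -0.46.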

How the data were processed

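RNA of 6 samples was measured on whole-transcript arrays. The deposited table holds log2 expression values of 33297 probe sets, normalized by the authors. RMA, Partek 6.6 and Affymetrix Expression Console are listed per the submitters' processing notes, without their roles. No counts or detection calls were used, and the number of arrays limits precision. Of 21214 annotated probe sets, 19460 had 1 symbol and 1754 several. The probe set with the highest mean stood for a gene. Groups were compared with limma 3.58.1 in R 4.3.3 (lmFit, eBayes, no covariates, 2-sided), after a check on simulated data. The members and lists were chosen with earlier results of these data known. Values per array are given for members called at 2-fold or more, the 3 highest, KPNA2, KPNB1, XPO1, NUP98 and NUP62. They are also given for NUP153, NUP210, NUP214, IPO13, SEH1L and KPNA3, chosen after their values were seen. From each other list, up to 4 called genes with the largest absolute change were named. AHCTF1, POM121, POM121C, RCC1, NXF1, DDX39B, THOC3, RPLP0 and DCT, which had no single-symbol probe set in the annotation, were not used here. Protein sequences were not used here. Alternatives were re-scaling, a filter on dim genes, probe set averaging, an intensity trend, a replicate block and leaving out each array.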

Additional observations from a re-analysis of the deposited data

How the results depend on the processing

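Under 14 other settings, 2 of them (scaling over the gene table rather than all probe sets) chosen after seeing the data, 28 to 33 members fell and 4 to 6 rose, and the list median ran from -0.51 to -0.37, the latter after quantile normalization of the gene table. In the same settings 3976 to 4976 of all genes fell and 3276 to 4846 rose, with 3276 in the fit without the dimmest 40% of genes. Of the called members, 28 lower and 4 higher ones were called in every setting that held them, and no called member changed sign. The calls of IPO8, KPNA5, NUP42, NUP98 and XPO1 were each lost at least once (highest adjusted p = 0.092, 0.146, 0.094, 0.291 and 0.058), the call of XPO1 only after quantile normalization of the gene table. Members that were not called changed sign near 0. KPNA7 was at -0.015 after re-centring, -0.067 after quantile normalization and -0.037 after that of the gene table. KPNA6 was at 0.011 and 0.065 in the same quantile settings and 0.014 after re-centring of the gene table, TNPO3 at 0.031, 0.085 and 0.033, and NUP210L at -0.030 and -0.020 in the quantile settings. NUP62CL was at 0.038 after re-centring of the gene table, and TNPO2 was at 0.035 after quantile normalization of the gene table, where IPO9 was called higher (0.15). With single arrays left out, KPNA6 ran from -0.083 to 0.015, KPNA7 from -0.014 to 0.023, NUP62CL from -0.098 to 0.075, IPO9 from -0.0029 to 0.059 and KPNA2 minus KPNA3 from -0.026 to 0.14. No mRNA export, proliferation or Ran cycle gene was called higher in the report. With quantile normalization this was 2 for mRNA export and 1 for proliferation, and without the dimmest 40% of genes or with an intensity trend it was 1 and 1. With either scaling of the gene table it was 2 for mRNA export, 2 for the Ran cycle and 1 for proliferation, and with single arrays left out 0 to 1 for each. Among all genes 46.5% of calls were higher, and 54.7% after re-centring of the gene table. The cause of these shifts was not tested. Arrays that share a sample number had r of deviations from the group means of 0.315, -0.192 and 0.26 for numbers 1, 2 and 3. For different numbers r ran from -0.473 to 0.372. Deviations within a group of 3 cancel out, so these r depend on each other. They cannot decide whether the numbers pair the arrays. A fit with the number as a replicate block gave 32 lower and 5 higher members with the same median of -0.46, and 1 proliferation gene higher. The number of arrays, and the unknown background level of dim probe sets, limit what can be seen.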
